A study of Homo sapiens with 6 samples.

Results

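Ribosome biogenesis was followed through 40 protein-coding genes, taken by symbol from a given list and sorted by role: 8 encode proteins of small nucleolar ribonucleoproteins (snoRNPs), 13 act on the small ribosomal subunit, 11 on the large subunit, and 8 belong to RNA polymerase I or act on ribosomal DNA and its transcript. All 40 were found among the 58735 genes of the deposited table and all 40 were among the 17215 genes with enough counts to test. The genes were chosen with earlier results of these data known, so their shares of calls beside those of all genes are descriptive. The libraries came from LX-2, a human cell line of hepatic stellate origin whose genotype is labelled wild type. All cells carried siRNA against NSUN2, an RNA cytosine methyltransferase: 3 libraries had no further treatment, and 3 came from cells given TGF-β1, a signalling protein known to turn stellate cells into matrix-producing cells, for 24 hours at 5 ng/ml, starting 48 hours after transfection. The design text of the series also names NAT10, an RNA acetyltransferase, for the siRNA; the sample labels were followed. The sample labels give no harvest time for the untreated libraries, so a difference in time since transfection cannot be told apart from TGF-β1. Cells without siRNA were not analysed here, so the values describe the TGF-β1 response of siRNA-treated cells and carry no estimate of the knockdown. The replicates are labelled biological without a statement that they were separate cultures, so the p-values measure the spread among these libraries. In bulk RNA, fewer cells that express a gene and less of its RNA per cell cannot be told apart.

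Ribosomes are assembled in the nucleolus. RNA polymerase I transcribes ribosomal DNA into a long precursor, snoRNPs guide chemical modification of that precursor (box C/D snoRNPs add methyl groups and box H/ACA snoRNPs convert uridine to pseudouridine), and ordered sets of assembly factors cut and fold it into the pre-40S and pre-60S particles. Many of these genes are known targets of MYC, a transcription factor that binds the E-box, a short palindromic DNA motif. Activated stellate cells divide and secrete large amounts of matrix protein.

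The E-box letters are shown first, as a description of the promoters. The rule behind the given list was not stated, and earlier results of these data were known when it was chosen. The shares below therefore describe these genes and are no independent support. In the RefSeq promoter windows (GRCh38.p14, 250 bases before to 50 after a start site), 33 of the 40 genes had an entry, and 14 of those 33 (42.4%) held CACGTG, which reads the same on both strands. The share was 12.4% of 10599 tested protein-coding genes, 8.77% of all 27305 genes in the promoter table and 26.6% of 128 other ribosome biogenesis genes. Shown 5′ to 3′ on the strand of the gene are the windows of the 8 genes with the motif and the largest rise with TGF-β1, and both windows of NOP10, the only gene of the 40 with a fitted change below 0; capitals mark CACGTG.
GAR1 (chr4:109815781-109815810, plus strand): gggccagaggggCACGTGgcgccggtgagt
DDX21 (chr10:68956604-68956633, plus strand): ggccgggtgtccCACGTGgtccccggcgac
WDR43 (chr2:28894658-28894687, plus strand): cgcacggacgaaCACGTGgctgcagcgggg
GNL3 (chr3:52686026-52686055, plus strand): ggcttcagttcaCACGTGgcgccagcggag
MRTO4 (chr1:19251807-19251836, plus strand): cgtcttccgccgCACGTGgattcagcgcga
UTP20 (chr12:101280083-101280112, plus strand): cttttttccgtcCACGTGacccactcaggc
BYSL (chr6:41921515-41921544, plus strand): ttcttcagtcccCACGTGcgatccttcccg
RRP9 (chr3:51941892-51941921, minus strand): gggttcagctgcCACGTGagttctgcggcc
NOP10, nearer window (chr15:34343130-34343159, minus strand): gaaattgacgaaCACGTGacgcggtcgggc
NOP10, farther window (chr15:34343289-34343318, minus strand): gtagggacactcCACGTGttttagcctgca

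In all 14 genes a copy of the motif began within 50 bases of the annotated start site. The other 5 genes with a copy were PES1, LTV1, FBL, UTP4 and NOP14. By role, the motif stood in 7 of 12 small subunit genes with an entry, 3 of 6 snoRNP genes, 3 of 8 large subunit genes and 1 of 7 genes of the RNA polymerase I group. A letter match is a description of the window and does not show binding. Of the 40, 11 of the 14 genes with the motif rose with TGF-β1, as did 16 of the 19 without it, with median log2 fold changes of 0.34 and 0.22. Among the 128 other ribosome biogenesis genes, 25 of 34 with the motif (73.5%) and 45 of 94 without it (47.9%) were called higher. Over all tested protein-coding genes, 25.3% of those with the motif and 24.1% of those without it were called higher. Whether these shares differ was not tested.

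The libraries held 25828504 to 30034762 counts. Levels are given as normalised CPM (counts per library size, scaled to a common total), and changes as log2 fold changes of TGF-β1 over untreated ± SE with p-values from edgeR's quasi-likelihood test, adjusted over all 17215 tested genes and called under 0.05. NSUN2 itself stood at 81.4, 82.9 and 84.4 CPM in the untreated libraries and at 102.7, 97.0 and 101.9 CPM with TGF-β1 (0.28 ± 0.04, adjusted p = 1.57e-06), and NAT10 was not called (0.03 ± 0.05, adjusted p = 0.726). Of 15 stellate markers 11 could be tested, with 6 higher and 5 lower; COL1A1, VIM and PDGFRB were expressed in every library, LRAT and DCN were at 0 in all libraries, and DES and LUM never passed 6 counts. Their summed level was 2825 to 2880 CPM untreated and 5429 to 6058 CPM with TGF-β1, most of it COL1A1 (1418 ± 6.13 and 3993 ± 318.6 CPM, SD, n = 3). The markers that fell were ACTA2, GFAP, HAND2, NGFR and RELN. The hepatocyte gene ALB had at most 1 count, the leukocyte gene PTPRC at most 4 and the cholangiocyte gene EPCAM at most 9. The summed levels in the untreated and TGF-β1 libraries were 23.6 to 27.4 and 21.3 to 23.1 CPM for hepatocyte markers, nearly all SERPINA1, and 13.3 ± 1.53 and 16.3 ± 1.55 CPM (SD, n = 3) for leukocyte and Kupffer cell markers, in which CSF1R rose from 4.34 ± 0.965 to 12.3 ± 0.121 CPM and CD14 fell from 8.49 ± 1.20 to 3.71 ± 1.70 CPM. They were 1.82 to 2.72 and 1.58 to 2.26 CPM for endothelial markers, and 71.0 to 72.7 and 56.8 to 58.5 CPM for cholangiocyte markers, mostly SOX9; the part of any of these in the results was not tested.

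With TGF-β1, 33 of the 40 ribosome biogenesis genes (82.5%) rose and 0 fell. Across all tested genes 20.2% were called higher and 18.7% lower. The largest rises belonged to GAR1, a box H/ACA protein, DDX21, a nucleolar RNA helicase, WDR43 of the small subunit processome, and NOP16 and PPAN of the large subunit pathway. The PPAN value rested on few counts and on exons mostly shared with other genes. The rises were small: the median log2 fold change was 0.27, a 1.21-fold change, against -0.01 over all tested genes, and the median gene stood at the 81.4th percentile of changes. Only 5 of the called genes changed by at least 0.5 and 11 changed by less than 0.25.

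The size of a general rise depends on how the libraries are scaled. TMM, the scaling used here, sets aside genes with extreme ratios between libraries and put the median of all tested genes at -0.01. Scaling by library totals alone shifted that median to -0.13 and left 22 of the 40 genes called higher and 1, NOP10, called lower (-0.16, adjusted p = 0.0105). Under that scaling 27.4% of the calls over all tested genes were higher, against 51.8% with TMM. A change of scaling moves the log2 fold changes of all genes by nearly the same amount, so the distance of the median of the 40 from the median of all genes, 0.28, is set almost independently of it and is no check of the scaling. Of the 33 called genes, 21 were also called under all 17 alternatives tried.

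The replicates lay close together. The coefficient of variation of a gene's CPM had a median of 2.82% among untreated and 3.62% among TGF-β1 libraries, and the 3 libraries of each group differed from one another by more than sampling noise. In 34 of the 40 genes (85.0%) every TGF-β1 library was above every untreated one, a pattern found in 24.1% of all tested genes. Summed over the 40, the level was 4151, 4129 and 4145 CPM in untreated libraries and 4967, 5035 and 4983 CPM with TGF-β1. The 7 genes without a call were NOP10, NOP14, LTV1, FTSJ3, POLR1E, UBTF and RRN3.

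**Figure D1:**
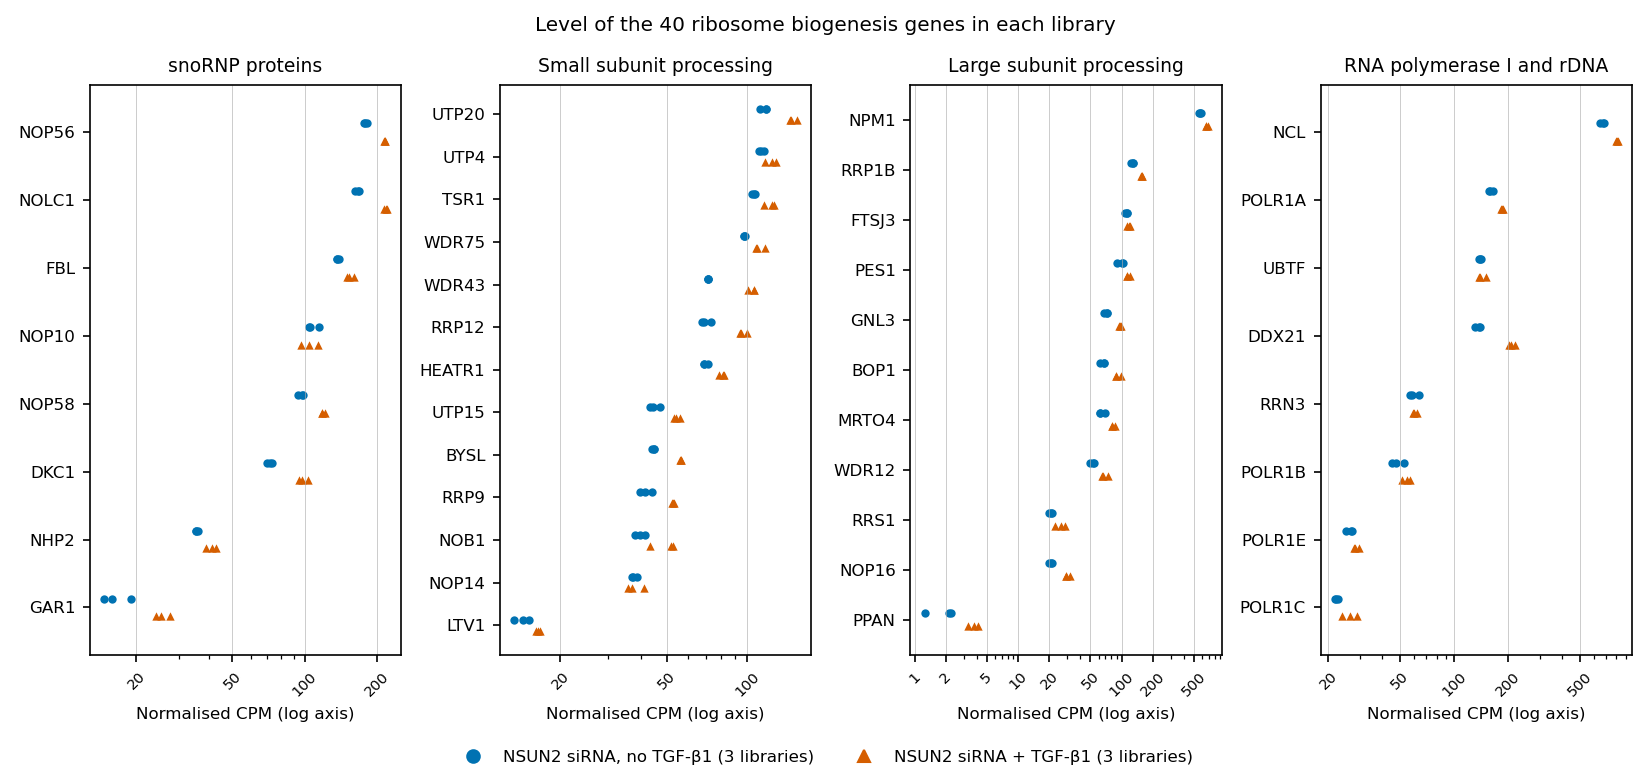
Normalised CPM of each of the 40 genes in each library, on a log axis, by role; circles are the 3 untreated and triangles the 3 TGF-β1 libraries, all with NSUN2 siRNA. Under TMM scaling the groups are apart with TGF-β1 higher in 34 genes, and they overlap in NOP10, NOP14, FTSJ3, POLR1B, UBTF and RRN3.

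Of the 8 snoRNP genes 7 rose, with a median of 0.28 under TMM and 5 rising and 1 falling under library totals. In the box C/D core, all 3 of the proteins among the 40 rose. NOP56, a scaffold of the particle (chromosome 20, 2652145 to 2658393 on hg38), stood at 177.1, 177.7 and 180.9 CPM and at 213.6, 215.6 and 215.5 CPM with TGF-β1 (0.27 ± 0.03, adjusted p = 1.78e-08). Its partner NOP58 stood at 94.3, 97.8 and 98.0 CPM untreated and 121.2, 117.6 and 118.0 CPM treated (0.30 ± 0.04, adjusted p = 1.11e-07). The groups did not overlap in either. The ratio of their length-corrected levels (FPKM) within a library, which does not depend on scaling, was 0.886 ± 0.015 untreated and 0.906 ± 0.020 with TGF-β1 (SD, n = 3), with overlapping groups. Fibrillarin (FBL), the methyltransferase of the particle, rose less, from 135.8, 136.1 and 139.3 CPM to 152.8, 161.0 and 149.9 CPM (0.17 ± 0.04, adjusted p = 0.000256; no call with library totals). Its FPKM ratio to NOP56 was 1.91 ± 0.006 untreated and 1.79 ± 0.064 treated, with the untreated libraries all above the treated. SNU13, a further box C/D core protein from the list of other ribosome biogenesis genes, named after its value was seen, was not called (-0.05, adjusted p = 0.436).

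The box H/ACA core moved unevenly. GAR1 (chromosome 4, 109815510 to 109824740, plus strand), a core protein needed for activity of the particle, stood at 14.6, 15.8 and 19.0 CPM in untreated libraries and at 25.2, 27.5 and 24.2 CPM with TGF-β1. The groups were apart, and the change was 0.64 ± 0.09 (adjusted p = 1.82e-07), the largest among the snoRNP genes. Dyskerin (DKC1; X chromosome, 154762742 to 154777689), the pseudouridine synthase, rose from 69.9, 72.1 and 72.9 CPM to 103.0, 95.1 and 97.3 CPM (0.46 ± 0.05, adjusted p = 4.25e-11). NHP2, an RNA-binding core protein, rose from 35.4, 35.3 and 35.9 CPM to 38.8, 41.1 and 42.7 CPM (0.20 ± 0.06, adjusted p = 0.0107). The NHP2 call was lost with library totals, with upper-quartile factors and without TGF-β1 replicate 3 (0.17, adjusted p = 0.0633). In NHP2 27.4% of exon bases are shared with RMND5B on the other strand, and whether the counting used strand was not stated in the labels or notes.

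NOP10 (chromosome 15, 34341713 to 34343177, minus strand), the small protein that binds dyskerin directly, was the exception in this complex. It was listed at 104.8, 114.6 and 104.6 CPM untreated and at 96.3, 114.1 and 104.6 CPM with TGF-β1, and the groups overlapped (-0.04 ± 0.05, adjusted p = 0.587). Per length it was the most abundant of the 40 transcripts, at 189.2 FPKM in untreated libraries against a median of 18.4 FPKM over the 40. The FPKM ratio of GAR1 to NOP10 was 0.0378, 0.0372 and 0.0491 untreated and 0.0708, 0.0653 and 0.0627 with TGF-β1, 1.60 times higher in the mean and with no overlap. The ratio of DKC1 to NOP10 was 1.42 times higher, from 0.0875 ± 0.0044 to 0.124 ± 0.016 (SD, n = 3), again with no overlap. NHP2 relative to DKC1 went from 1.38 ± 0.025 to 1.16 ± 0.096, with all treated libraries below the untreated. GAR1 relative to DKC1 overlapped between groups. Such ratios restate the changes of their genes in a form free of scaling, and no ratios of other gene pairs were set beside them. NOLC1, a chaperone of both kinds of snoRNP, rose from 166.9, 162.7 and 168.8 CPM to 213.4, 219.9 and 218.2 CPM (0.39 ± 0.04, adjusted p = 2.03e-12).

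Of the 13 small subunit genes 11 rose with TMM scaling and 7 with library totals, with a median of 0.28 under TMM. All 5 members of the t-UTP group, the subcomplex that loads first on the nascent precursor, were called, but their sizes ranged widely. WDR43 (chromosome 2, 28894643 to 28948222) stood at 71.1, 71.4 and 71.0 CPM untreated and at 100.3, 105.9 and 106.1 CPM with TGF-β1 (0.55 ± 0.05, adjusted p = 1.12e-13). The untreated libraries were nearly equal and all the treated ones were well above them. UTP15 changed by 0.28 ± 0.06, HEATR1 by 0.20 ± 0.05 and WDR75 by 0.19 ± 0.04. HEATR1 shares 23.2% of its exon bases with other genes, LGALS8 among them. UTP4 changed by 0.12 ± 0.04, the smallest called change of the 40 at 8.69%. Its adjusted p was 0.0194 with all libraries and 0.0533 to 0.126 without untreated replicate 1, untreated replicate 3, TGF-β1 replicate 2 or TGF-β1 replicate 3, each left out in turn. Library totals ended the calls of HEATR1, WDR75 and UTP4.

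Among other processome factors, UTP20, a large scaffold protein, rose from 118.0, 117.5 and 112.1 CPM to 144.3, 146.0 and 153.9 CPM (0.35 ± 0.04, adjusted p = 7.87e-10). RRP9, a protein of the U3 snoRNP, rose by 0.34 ± 0.06, and the groups of both genes were apart. NOP14, a processome factor that sits on the nascent small subunit, stood at 37.0, 37.3 and 38.8 CPM untreated and 35.7, 36.9 and 41.1 CPM treated, with overlapping groups and no call (0.01 ± 0.07, adjusted p = 0.951). In NOP14, 17.1% of exon bases are shared with its antisense gene NOP14-AS1. Of the 5 factors of the later pre-40S particle 4 were called, and in all 5 the groups were apart with TGF-β1 higher. RRP12, an export factor, rose from 67.8, 73.4 and 68.7 CPM to 99.7, 93.9 and 94.4 CPM (0.46 ± 0.05, adjusted p = 8.26e-11). Bystin (BYSL), a maturation factor, rose from 44.1, 44.6 and 44.7 CPM to 56.1, 56.6 and 56.7 CPM (0.35 ± 0.06, adjusted p = 2.00e-06). NOB1, the nuclease that makes the last cut of 18S rRNA, rose by 0.32 ± 0.07, and TSR1, which occupies a site of translation factors, rose by 0.20 ± 0.04, a call lost with library totals. LTV1, an export and assembly factor at 13.4 to 15.2 CPM untreated and 16.1 to 16.8 CPM treated, had no call (0.20 ± 0.10, adjusted p = 0.114). In the test on log2 FPKM values with the filter on low values, LTV1 was called (adjusted p = 0.0271 with a pseudocount of 1). Exon bases are shared with other genes for 34.8% of LTV1, 20.2% of NOB1 and 20.8% of TSR1.

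Of the 11 large subunit genes 10 rose, or 8 with library totals, and their median of 0.37 under TMM was the largest of the roles. The PeBoW complex, which is needed to process the precursor of 28S rRNA, was called in all of its proteins. BOP1 stood at 68.0, 68.2 and 61.8 CPM untreated and 88.2, 88.7 and 98.7 CPM treated (0.48 ± 0.05, adjusted p = 2.45e-10). WDR12 rose from 54.2, 49.1 and 52.5 CPM to 74.0, 64.8 and 66.1 CPM (0.39 ± 0.06, adjusted p = 1.76e-07). PES1 rose less, from 101.3, 104.1 and 90.0 CPM to 114.0, 119.7 and 111.8 CPM (0.23 ± 0.05, adjusted p = 0.000133; no call with library totals). The groups did not overlap in any of these genes. The FPKM ratio of BOP1 to PES1 rose from 0.823 ± 0.020 to 0.980 ± 0.091 with no overlap, while that of WDR12 to PES1 overlapped between groups (0.266 ± 0.028 and 0.298 ± 0.027, SD, n = 3).

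Nucleolar proteins that join the pre-60S particle early differed from one another in size. NOP16 (chromosome 5, 176383938 to 176388975, minus strand) stood at 20.8, 21.1 and 20.1 CPM untreated and 29.1, 29.2 and 32.1 CPM treated (0.54 ± 0.08, adjusted p = 1.98e-07). It shares 19.95% of its exon bases with ARL10 and HIGD2A on the other strand. Nucleostemin (GNL3), a GTP-binding protein of proliferating cells, rose from 72.3, 68.3 and 72.8 CPM to 97.0, 99.6 and 95.4 CPM (0.45 ± 0.05, adjusted p = 5.02e-11). Nucleophosmin (NPM1), an abundant nucleolar chaperone, rose from 571.8, 563.3 and 583.7 CPM to 657.5, 678.2 and 660.1 CPM (0.22 ± 0.03, adjusted p = 6.15e-08). The ratio of GNL3 to NPM1 in FPKM went from 0.143 ± 0.003 to 0.169 ± 0.002, with no overlap. NPM1 has 45 annotated pseudogenes, which held 2950 counts over the 6 libraries against 104188 for NPM1. MRTO4, a mimic of the stalk protein P0 that holds its place on the particle, rose by 0.37 ± 0.05. RRP1B and RRS1, assembly factors, rose by 0.32 ± 0.04 and 0.32 ± 0.08, the second call being lost with library totals; RRS1 shares 11.4% of its exon bases with another gene.

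PPAN, a pre-60S factor, had the largest fitted change of the 40 and the least certain one. It had the lowest listed level of the 40, at 2.27, 2.13 and 1.25 CPM untreated and 3.76, 4.08 and 3.32 CPM with TGF-β1, on 467 counts in all (0.97 ± 0.24, adjusted p = 0.000760). The groups did not overlap. In PPAN 59.8% of exon bases are shared with P2RY11 and the read-through gene PPAN-P2RY11, and the read-through was listed at 0 counts in every library, so that the split of reads among the overlapping genes is uncertain. FTSJ3, a methyltransferase of the precursor, was the only large subunit gene without a call: 112.2, 108.4 and 114.0 CPM untreated and 113.6, 120.4 and 118.4 CPM treated, with overlapping groups (0.08 ± 0.04, adjusted p = 0.156). It shares 16.8% of its exon bases with PSMC5 on the other strand.

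The 8 genes of the RNA polymerase I group had the lowest share of calls, 5 of 8 with TMM scaling and 2 with library totals, and a TMM median of 0.19; whether the roles differ was not tested. Of the 4 enzyme subunits among the 40, 3 were called, with changes of 0.25 or less. POLR1A, the largest subunit, rose from 157.9, 165.4 and 157.3 CPM to 187.8, 183.9 and 182.4 CPM (0.21 ± 0.04, adjusted p = 9.34e-06; no call with library totals). POLR1B, the second subunit, was called although its groups overlapped, with 47.9, 52.7 and 45.2 CPM untreated and 51.7, 57.0 and 54.8 CPM treated (0.17 ± 0.06, adjusted p = 0.0245). That call was lost without untreated replicate 1, untreated replicate 3, TGF-β1 replicate 2 or TGF-β1 replicate 3, each left out in turn, with adjusted p-values of 0.0545 to 0.192. The FPKM ratio of POLR1B to POLR1A was 0.647 ± 0.033 and 0.631 ± 0.039, with overlapping groups.

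POLR1C, a subunit shared with RNA polymerase III, changed by 0.25 ± 0.08 (adjusted p = 0.0129), a call lost with library totals, without untreated replicate 1 (adjusted p = 0.0501) and without TGF-β1 replicate 3 (adjusted p = 0.115). It shares 18.2% of its exon bases with genes that include XPO5. POLR1E, a subunit that takes part in initiation, stood at 26.2 ± 1.07 CPM untreated and 28.7 ± 0.985 CPM treated (SD, n = 3), with groups apart and no call (0.13 ± 0.07, adjusted p = 0.183). Neither factor that places the polymerase on ribosomal DNA was called. UBTF, which binds the ribosomal DNA promoter, was at 141.1, 137.1 and 138.9 CPM untreated and 150.3, 140.2 and 137.1 CPM treated (0.04 ± 0.04, adjusted p = 0.524). RRN3, which makes the polymerase competent to initiate, was at 58.7, 56.9 and 64.1 CPM untreated and 60.3, 62.1 and 59.6 CPM treated (0.02 ± 0.05, adjusted p = 0.831). Both had overlapping groups, and both fitted changes were below 0 with upper-quartile factors and library totals. The 2 annotated pseudogenes of RRN3 held 1897 counts over the 6 libraries against 10180 for RRN3. The FPKM ratio of POLR1A to UBTF rose from 0.596 ± 0.024 to 0.671 ± 0.022 with no overlap (SD, n = 3).

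The nucleolar proteins grouped here with the polymerase, which act both on ribosomal DNA and on its transcript, rose under every scaling tried. DDX21 (chromosome 10, 68956128 to 68985073, plus strand) stood at 138.0, 130.6 and 139.8 CPM untreated and 217.2, 207.2 and 202.0 CPM treated (0.62 ± 0.04, adjusted p = 1.09e-17), the smallest p of the 40. Nucleolin (NCL; chromosome 2, 231453531 to 231483641, minus strand) stood at 684.2, 647.3 and 670.8 CPM untreated and 797.7, 815.3 and 805.1 CPM treated (0.27 ± 0.03, adjusted p = 2.09e-10). The groups were far apart in both genes. DDX21 relative to NCL in FPKM was 0.278, 0.278 and 0.288 in untreated libraries and 0.376, 0.351 and 0.346 with TGF-β1, 1.27 times higher in the mean.

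**Figure D2:**
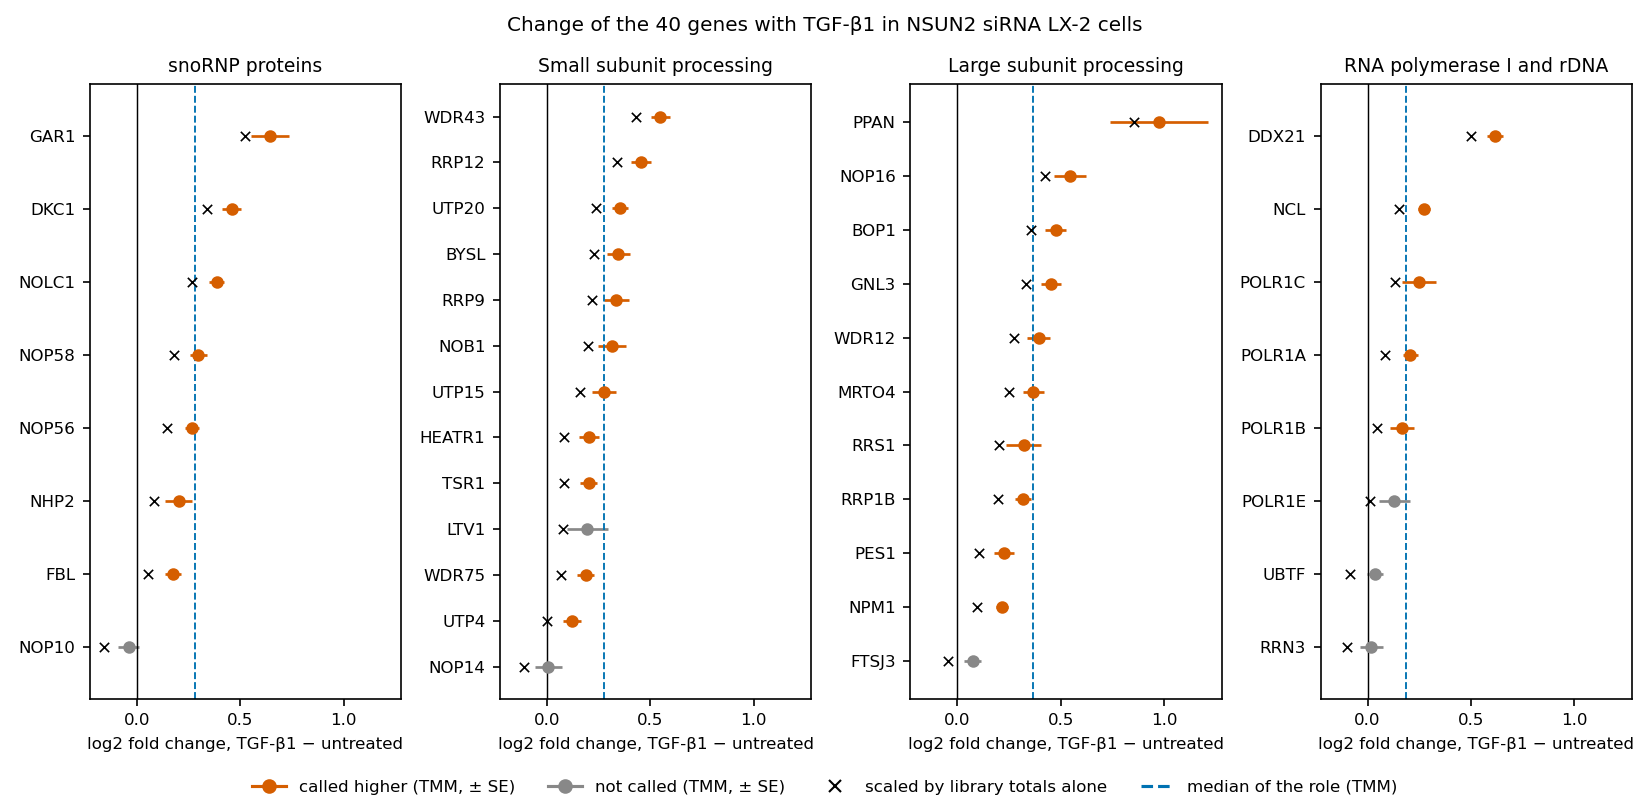
Log2 fold change (TGF-β1 over untreated, 3 libraries each) of the 40 genes by role, with points and bars for the TMM estimate ± SE, crosses for scaling by library totals alone and dashed lines for the median of each role. Orange marks the 33 genes called higher with TMM; with library totals the values shift left, 22 remain called and NOP10 is called lower.

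**Figure D3:**
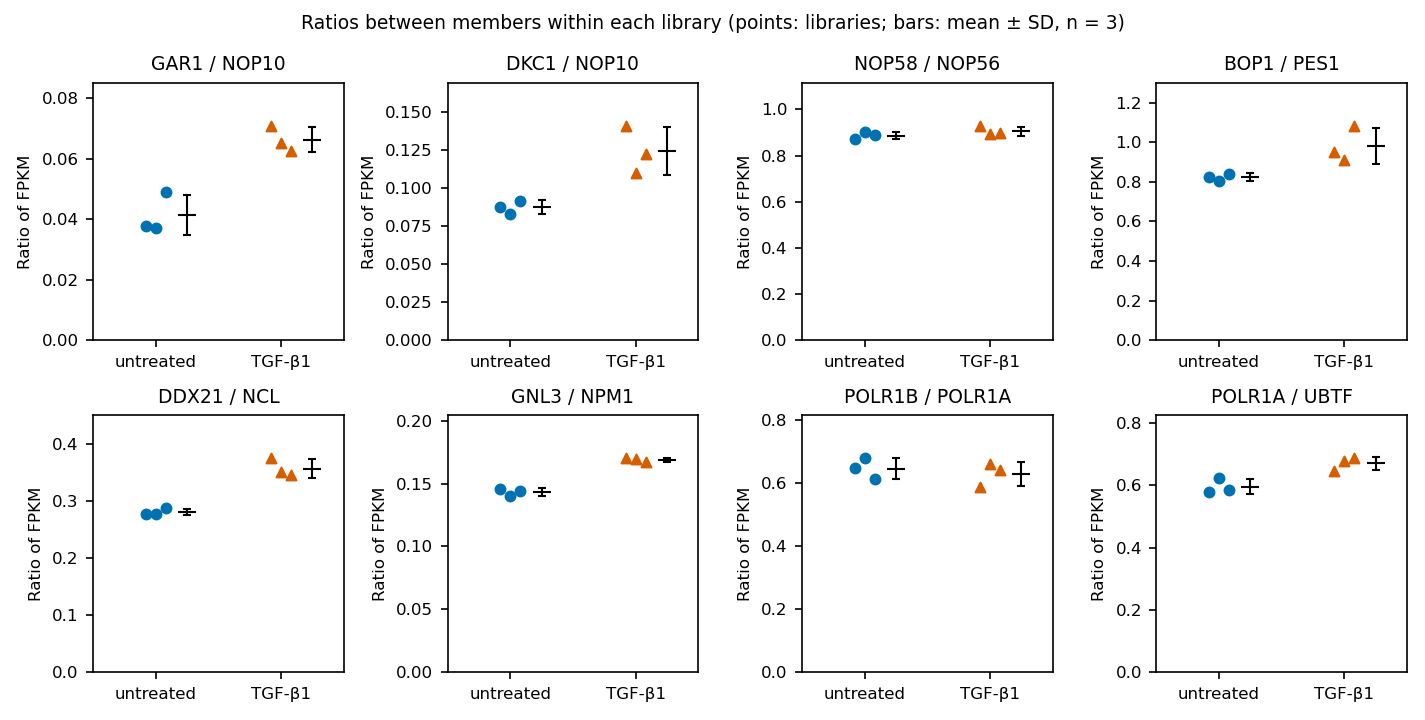
FPKM ratios between pairs of the genes in each library (points), with bars for the mean ± SD (n = 3) and axes starting at 0. The groups are apart for GAR1 and DKC1 over NOP10, BOP1 over PES1, DDX21 over NCL, GNL3 over NPM1 and POLR1A over UBTF, and they overlap for NOP58 over NOP56 and POLR1B over POLR1A.

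The wider pathway was read from a list of other ribosome biogenesis genes, of which 153 were tested. With TMM scaling 85 of them were called higher and 6 lower (median 0.18). Under library totals 43 were higher and 20 lower (median 0.06). Over all tested genes the medians were -0.01 with TMM and -0.13 with library totals, and 51.8% and 27.4% of the calls were higher. The processing factors had the most calls. In the small subunit part 34 of 44 rose and 1 fell (median 0.24), led by RCL1, a protein of the small subunit processome (0.83 ± 0.09, adjusted p = 1.25e-10), and PWP2, a processome scaffold (0.82 ± 0.09, adjusted p = 1.22e-10). In the large subunit part 36 of 53 rose and 3 fell (median 0.20), led by NIFK, a nucleolar RNA-binding protein that interacts with Ki-67 (0.59 ± 0.08, adjusted p = 5.39e-08), and PUM3, a Pumilio-type assembly factor (0.58 ± 0.08, adjusted p = 3.18e-08).

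The remaining roles had fewer calls. The shares called higher were 40% of further RNA polymerase I genes and 28.6% of rRNA modification genes. They were 17.6% of exosome and nuclease genes and 16.7% of further snoRNP genes. The last shares were below the 20.2% of all tested genes called higher (18.7% were called lower). Among further RNA polymerase I genes, 8 of 20 rose and 1 fell (median 0.09, or -0.02 with library totals). CD3EAP, a polymerase subunit, rose from 8.64, 8.60 and 7.46 CPM to 15.5 ± 1.25 CPM (SD, n = 3; 0.91 ± 0.11, adjusted p = 1.10e-08), while POLR2L, a small subunit common to all nuclear RNA polymerases, fell by 0.41 ± 0.05 (adjusted p = 3.72e-08). Of the subunits of a further initiation factor, named after their values were seen, TAF1D rose (0.37 ± 0.05, adjusted p = 1.49e-07). TAF1A, TAF1B, TAF1C and TBP were not called. Further snoRNP genes rose in 2 of 12 cases (median 0.05, or -0.07 with library totals): NAF1, an H/ACA assembly factor (0.33 ± 0.10), a call lost with library totals, and RUVBL1, an ATPase of snoRNP assembly (0.24 ± 0.05). The RNA exosome and precursor nucleases had 3 of 17 higher (median 0.06, or -0.06 with library totals), which were ISG20L2 (0.30 ± 0.06), EXOSC10 (0.19 ± 0.04) and MTREX (0.18 ± 0.04). The rRNA modification genes had 2 of 7 higher and 1 lower (median 0.08, or -0.04 with library totals), with DIMT1, the dimethyltransferase of 18S rRNA, at 0.30 ± 0.05 and BUD23, which methylates a guanine of 18S rRNA, at 0.15 ± 0.05. BUD23 lost its call with library totals, with upper-quartile factors and without untreated replicate 3 (adjusted p = 0.0706), and EXOSC10 lost it with library totals. Under library totals only 1 of the 17 exosome and nuclease genes was called higher, and 4 were called lower.

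The 6 genes of the wider list that fell were named after their values were seen. Besides POLR2L they were EFL1, a GTPase of late pre-60S maturation (-0.28 ± 0.06), IMP3 of the U3 snoRNP (-0.26 ± 0.09), NOP53 (-0.14 ± 0.05) and DDX24 (-0.11 ± 0.04) of the large subunit part, and TRMT112, a cofactor of several methyltransferases including BUD23 (-0.13 ± 0.04). The count of lower genes was 3 without untreated replicate 3 and 3 without TGF-β1 replicate 1. It was 10 with upper-quartile factors.

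Lists of genes that serve protein synthesis beside ribosome assembly were set against the 40. Of 23 cytosolic aminoacyl-tRNA synthetases, the enzymes that load tRNAs with amino acids, 15 rose and 1, QARS (-0.11 ± 0.04), fell with TMM (median 0.19). Under library totals, where the median of all tested genes was -0.13, 8 rose and 3 fell (median 0.07). QARS was not called with the DESeq2 Wald test or limma-voom, nor without untreated replicate 3, TGF-β1 replicate 1 or TGF-β1 replicate 3. TARS (0.50 ± 0.03) and VARS (0.41 ± 0.04) had the largest changes. The 77 cytosolic ribosomal protein genes moved less: with TMM 25 rose and 3 fell (RPLP1, RPL13A and RPSA, at -0.11, -0.09 and -0.07) for a median of 0.09, and with library totals 2 rose and 18 fell for a median of -0.03. Without TGF-β1 replicate 1 the ribosomal protein counts were 39 higher and 0 lower, without untreated replicate 3 there were 0 lower, and with upper-quartile factors 16 rose and 5 fell. Among the genes with at least 5 CPM the largest called changes were those of RPL24 (0.29 ± 0.04) and RPL26 (0.27 ± 0.10), the second of which was not called with library totals, upper-quartile factors or no filter on low counts. RPL26 was also not called without untreated replicate 2, untreated replicate 3 or TGF-β1 replicate 2 (adjusted p-values of 0.0958 to 0.113).

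**Figure D4:**
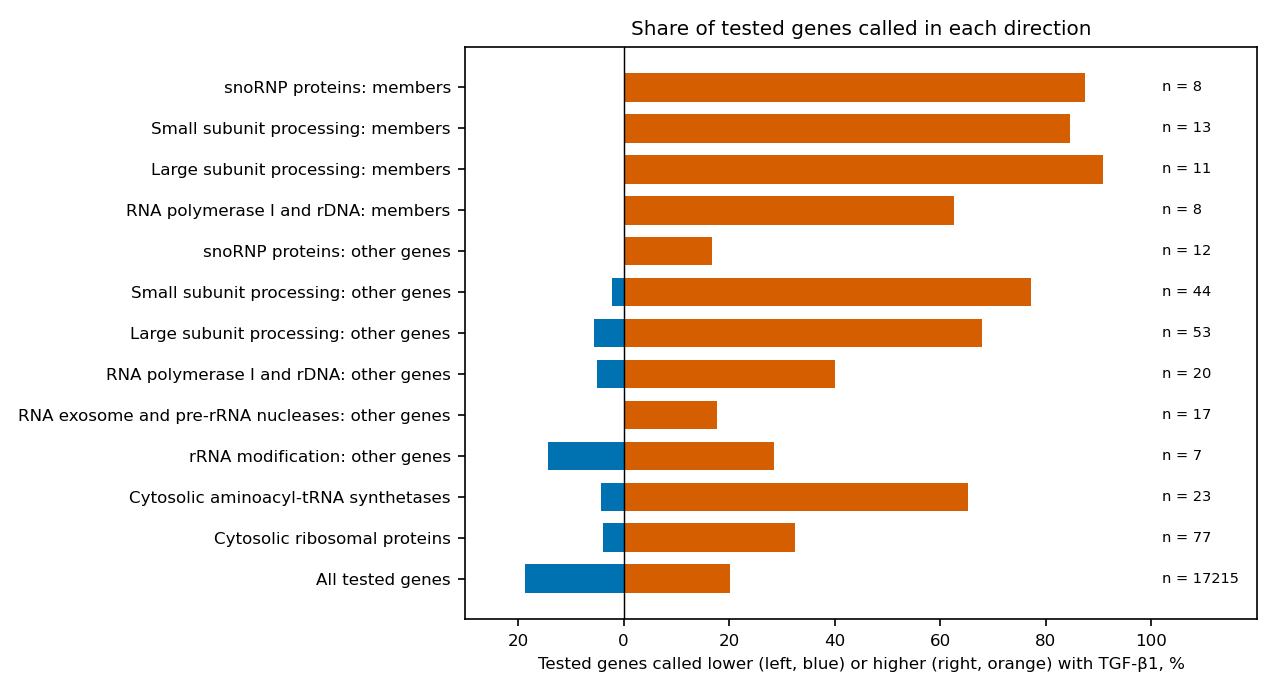
Share of tested genes called higher (right, orange) or lower (left, blue) with TGF-β1 under TMM scaling, for the 40 genes by role, the other ribosome biogenesis genes by role, synthetases, ribosomal proteins and all 17215 tested genes. The bars of all tested genes reach 20.2% and 18.7% under TMM. With library totals alone, 18 of the 77 ribosomal protein genes were lower and 2 higher, for a median of -0.03. The median of all tested genes was then -0.13, so these counts do not compare with the TMM bars.

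MYC stood at 66.6, 70.2 and 64.6 CPM in untreated libraries and at 149.7, 149.5 and 147.8 CPM with TGF-β1, with no overlap (1.15 ± 0.04, adjusted p = 4.02e-25). Of 10 tested genes of the MYC network 6 rose and 2 fell with TMM, and 3 rose and 4 fell with library totals. Their medians were 0.19 and 0.07, against -0.01 and -0.13 over all tested genes. After MYC the largest change was in MLXIP, a glucose-sensing partner of MLX (0.93 ± 0.06, adjusted p = 3.14e-07). The 2 that fell, named after their values were seen, were MXD3 (-0.69 ± 0.08) and MXI1 (-0.39 ± 0.10), both MAX partners known to oppose MYC. MYC and the 40 genes were measured in the same libraries, and the part of MYC in their change was not tested.

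Some ribosome biogenesis genes carry snoRNA genes in their introns, so that 1 transcript yields both a protein message and guide RNAs. By annotation (GENCODE release 29), 9 of the 40 genes (22.5%) hold at least 1 snoRNA gene within their bounds on the same strand, against 229 (1.70%) of 13444 tested protein-coding genes. Genes annotated as scaRNA, a related class, were counted with the snoRNA genes. NOP56 and GNL3 hold 5 each, NOP58 holds 4, WDR43 and NCL hold 3 each, DKC1, TSR1 and PPAN hold 2 each, and POLR1C holds 1. In NOP56, NOP58, DKC1 and GNL3 some of the snoRNA genes overlap annotated exon bases of the host. All 9 were called higher with TMM (median 0.30), as were 24 of the 31 without a snoRNA gene (median 0.23), and TSR1 and POLR1C lost the call with library totals. Of the 229 tested protein-coding hosts, 34.9% were called higher, against 23.8% of all tested protein-coding genes. The snoRNAs themselves were not analysed here.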

How the data were processed

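RNA sequencing was compared between 3 untreated and 3 TGF-β1 libraries of LX-2 cells with NSUN2 siRNA, grouped by the sample labels. The deposited count table gives whole-number counts per gene, and the FPKM values deposited by the authors equalled counts divided by gene length and 1 size per library, 1.07 to 1.08 times the total count in untreated and 0.984 to 0.987 times in TGF-β1 libraries. fastp and HISAT2 2.2.1 with hg38 were used per the submitters' processing notes; not given in the sources used here are the counting tool, its strand setting and the annotation. GENCODE release 29 matched all 58735 gene identifiers with start, end and strand, and gave exon overlaps and snoRNA hosts. In each of the 2 tables, 6 columns matched no sample and were not used.

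Counts were tested with edgeR 4.0.16 in R 4.3.3 (TMM, filterByExpr with minimum count 10 and minimum total 15, robust quasi-likelihood test, 4 residual degrees of freedom, group as the only term, two-sided, Benjamini-Hochberg over 17215 genes, adjusted p under 0.05). The SE is the absolute log2 fold change over the square root of F. The biological coefficient of variation was 5.62%, and chi-square per degree of freedom within groups was 3.66 to 4.86. In 1 simulated data set the share of false calls exceeded the nominal level. A single draw does not measure the error rate, and calls near 0.05 may be less certain than stated.

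The 40 genes and the lists were chosen with earlier results of these data known. Named were all 40, NSUN2, NAT10, MYC, and per list or role up to 2 called genes with the largest absolute change and at least 5 CPM. MTREX, SNU13, TAF1A, TAF1B, TAF1C, TAF1D, TBP and the genes that fell, other than POLR2L, were added after their values were seen. Gene pairs for the FPKM ratios were picked by hand, without a stated rule. Alternatives were DESeq2 1.42.0 (size factors; Wald test), upper-quartile factors, library totals, no filter, at least 1 CPM in 3 libraries, limma 3.58.1 voom, a replicate block, each library left out, and limma on log2 FPKM with pseudocounts of 1 or 0.1 and a mean of at least 0.5 FPKM, or no filter. Promoter windows are RefSeq's (GRCh38.p14).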

Additional observations from a re-analysis of the deposited data

How the results depend on the processing

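The 40 genes gave 33 calls higher and 0 lower with DESeq2 size factors, the DESeq2 Wald test, limma-voom, a replicate block and either other count filter, and 32 and 0 on filtered log2 FPKM with either pseudocount. Over 17 alternatives, the genes kept direction and call in 629 instances, lost a call in 35, gained one in 3 and changed sign in 13. With library totals, all genes called higher numbered 2019 and all genes called lower 5354; 7 small subunit and 2 RNA polymerase I genes were higher, 1 gene was lower and the median of the 40 was 0.16. With upper-quartile factors these were 2821 and 3897, 30 of the 40 were higher, and their median was 0.23. Of all calls, 51.8% were higher with TMM, 42.0% with upper-quartile factors and 27.4% with library totals. On log2 FPKM without a filter 1881 of all genes were lower, and 3 RNA polymerase I genes and 27 of the 40 were higher. Leaving out each library gave 29 to 33 of the 40 higher, a median of 0.26 to 0.29 and 3 to 5 RNA polymerase I genes, 3 without untreated replicate 1 or TGF-β1 replicate 3. Signs changed only in uncalled genes: with upper-quartile factors NOP14 was at -0.038, UBTF at -0.0094, RRN3 at -0.027 and NAT10 at -0.017, and with library totals they were at -0.11, -0.083, -0.10 and -0.091, and FTSJ3 at -0.044. Leaving out a library put NOP14 at -0.051 to 0.052, NOP10 at -0.10 to 0.023, RRN3 at -0.021 to 0.066 and NAT10 at -0.016 to 0.084. Except where scaling moved all genes, the cause was not tested. Same-numbered libraries of the groups did not deviate together (correlations of -0.01, -0.007 and -0.01); the replicate block gave 33 of the 40 higher, 3431 of all genes higher and 3182 lower, and changed no call among the 40. Precision is limited by 3 libraries a group.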
